A study of Mus musculus with 3 samples.

Results

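The RNA-binding protein gene Msi2 and 9 other genes were followed in single cells of 3 mouse pancreatic tumours. The 9 were its paralogue Msi1 and Prom1, Nes, Cd44, Sox4, Cd24a, Procr, Kit and Bmi1, which are widely used as markers of stem or progenitor cells. They were chosen by symbol, and all 10 had a row among the 31053 genes of the count tables. Their levels were compared between 4 groups of cells set by marker genes, between cycling and non-cycling cells, and between cells with and without detected Msi2.

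All 3 tumours carried the same labels and formed 1 group. The donor mice were Msi2-Myc; R26-LSL-tdTomato, and the series title spells the model as Musashi2-CreER with MycT58A: tamoxifen activates CreER in cells that express Msi2, which turns on MYC and the red reporter in them. Epithelial cells positive for tdTomato were sorted 5 weeks after tamoxifen as pre-cancer cells and were placed orthotopically in the pancreas of NSG mice, which lack T, B and NK cells but keep myeloid, endothelial and stromal cells. End-stage tumours were sorted for EpCAM and gave 1 droplet-based 3' RNA library each, and the stated question was whether uncommitted pre-cancer cells give rise to several tumour subtypes. ASCP, PDAC and ACC are the tumour types in the title, but the samples' own labels gave no tumour a subtype and did not say whether the tumours came from 1 donor. The sources used here do not give how the CreER allele alters the Msi2 transcript, so counts of Msi2 could not be divided by allele.

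Musashi proteins bind messenger RNA through a pair of RNA recognition motifs and adjust its translation; the repression of Numb messenger RNA, which releases Notch signalling, is the best known case. Msi2 marks primitive cells in blood and in several epithelia, and in the pancreas Msi reporters and the surface proteins CD133 (Prom1), CD44 and CD24 have been used to isolate tumour cells with progenitor properties. Nestin (Nes) is an intermediate filament of neural and mesenchymal progenitors, Kit is the receptor of stem cell factor, Sox4 is a transcription factor of embryonic and tumour epithelium, Procr is the protein C receptor, and Bmi1 is a Polycomb protein that silences the Cdkn2a locus.

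Stretches before the start sites of 5 members are shown, 3 that were among the most different between cell groups, in either direction, and 2 that hold the motif CACGTG, the E-box bound by MYC with MAX, in a model driven by MYC. The sequences are from RefSeq on GRCm38.p6 (mm10), read 5′ to 3′ on the gene's strand, without bases that the gene annotation places in exons. CACGTG reads the same on both strands and is in capitals.
Msi2: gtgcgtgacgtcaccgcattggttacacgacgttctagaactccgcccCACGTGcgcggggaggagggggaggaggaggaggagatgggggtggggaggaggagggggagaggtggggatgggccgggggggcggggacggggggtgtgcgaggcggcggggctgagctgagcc
Bmi1: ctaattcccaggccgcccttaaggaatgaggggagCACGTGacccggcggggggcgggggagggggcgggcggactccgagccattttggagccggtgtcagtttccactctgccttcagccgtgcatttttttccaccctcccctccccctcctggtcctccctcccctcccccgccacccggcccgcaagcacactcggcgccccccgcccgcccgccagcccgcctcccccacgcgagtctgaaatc
Nes: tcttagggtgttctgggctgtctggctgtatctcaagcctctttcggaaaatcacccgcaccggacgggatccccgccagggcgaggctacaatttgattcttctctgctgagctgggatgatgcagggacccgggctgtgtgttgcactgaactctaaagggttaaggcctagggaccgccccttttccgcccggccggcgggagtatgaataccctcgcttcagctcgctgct
Kit: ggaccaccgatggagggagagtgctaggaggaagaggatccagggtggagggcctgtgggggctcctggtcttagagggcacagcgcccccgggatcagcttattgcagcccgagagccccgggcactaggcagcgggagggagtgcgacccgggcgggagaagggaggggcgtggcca
Cd44: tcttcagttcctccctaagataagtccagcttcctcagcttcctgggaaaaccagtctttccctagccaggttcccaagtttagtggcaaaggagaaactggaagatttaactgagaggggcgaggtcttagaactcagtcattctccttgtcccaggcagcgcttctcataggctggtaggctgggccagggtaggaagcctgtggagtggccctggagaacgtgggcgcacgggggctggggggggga
The Msi2 stretch lies at chr11:88718278-88718451 on the minus strand, and its E-box begins 126 bases before the start site. Other listed start sites of Msi2 lie 136 and 174 bases after the beginning of the same E-box. The last of them has a further CACGTG beginning 43 bases before it. The Bmi1 stretch lies at chr2:18676768-18677017 on the plus strand, with the motif beginning 215 bases before the start. The Nes stretch (chr3:87970843-87971077, plus), the Kit stretch (chr5:75574737-75574915, plus) and the Cd44 stretch (chr2:102901666-102901915, minus) do not have these letters. Of the 10 members 8 were matched to the promoter table, and of 32851 promoter windows of 250 bases in it 1978 (6.02%) held CACGTG. The median share of G and C in these windows was 52.4%, against 72.4% in the Msi2 stretch and 70.4% in the Bmi1 stretch. A match describes the letters and does not show binding.

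In mm10, Msi2 spans chr11:88339382-88718513 on the minus strand, and Msi1 spans chr5:115429599-115455698 on the plus strand. Prom1 (chr5:43993620-44102032, minus) and Kit (chr5:75574916-75656722, plus) lie on the same chromosome as Msi1. Cd44 (chr2:102811141-102901665, minus), Procr (chr2:155751117-155755471, plus) and Bmi1 (chr2:18677018-18686629, plus) share chromosome 2. Nes lies at chr3:87971078-87980451 (plus), Sox4 at chr13:28948919-28953713 (minus) and Cd24a at chr10:43578284-43584265 (plus). All 10 are protein-coding genes.

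The tables held 11502184, 9737397 and 16521484 unique molecular identifiers (UMIs) for tumours 1, 2 and 3, and 1427, 250 and 2804 barcodes were kept as cells, with median UMIs of 1621, 1332 and 1606. The libraries shared barcodes: all 4481 kept cells had 10 or more UMIs under the same barcode in both other libraries, and a barcode was kept only where at least 60% of its UMIs over the 3 libraries lay in 1 of them, so none was kept in more than 1. Tumour 2 lost 258 barcodes to this rule against 122 and 28. Over the groups of kept cells described below, the median share of a barcode's UMIs in its own library was 74.1% to 80.7% per tumour. The rest lay in the other libraries. Of the 4481 kept barcodes, 2067 took at least 10% of their UMIs from ribosomal RNA locus genes and Lars2, and were set apart. Cells were then placed in gates by UMIs of Ctrb1 and Clps (acinar gate), Tff1 and Lgals4 (ductal gate), Krt5 and Krt14 (squamous gate) or Msln, Tm4sf1 and F3 (Msln gate), none of them a member. The acinar gate held 277, 39 and 559 cells in tumours 1, 2 and 3, the ductal gate 394, 84 and 220, the Msln gate 68, 9 and 73, and the squamous gate 1, 2 and 55, while 566 cells fell in no gate. The labelled epithelial identity held in each gate: the summed level of Epcam, Cdh1, Krt8 and Krt18 was 1913 to 2346 UMIs per 1000000 of the sum (CPM) in the acinar gate, 5500 to 5826 CPM in the ductal gate and 7150 to 8877 CPM in the Msln gate. Other acinar genes (Cpa1, Pnliprp1, Cel, Cela1 and Zg16) summed to 4856 to 8073 CPM in the acinar gate and 68.2 to 211 CPM in the ductal gate.

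Levels below are CPM of the summed UMIs of a gate in 1 tumour. For comparison they are set beside free RNA, the UMIs of barcodes with 10 to 100 UMIs, which hold no whole cell. The counts are of 3' tags, so levels are compared between gates for 1 gene and not between genes. Where a level differs between gates, cells that carry the RNA and RNA per cell that carries it cannot be told apart from the sums alone.

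Msi2 was higher in the ductal gate than in the acinar gate. In the ductal gate it stood at 107, 154 and 87.8 CPM in tumours 1, 2 and 3 (116 ± 33.7 CPM, SD, n = 3). In the acinar gate it stood at 53.7 and 61.0 CPM in tumours 1 and 3, and at 0 of 79490 UMIs in tumour 2, which allows up to 37.7 CPM. The lowest ductal tumour was above the highest acinar tumour. Cells of no gate had 122, 95.4 and 105 CPM, a range that overlaps that of the ductal gate. The Msln gate had 40.9 and 89.1 CPM in tumours 1 and 3, and the squamous gate 64.3 CPM in tumour 3, the only tumour with more than 2 squamous-gate cells. Free RNA carried 90.5, 101 and 99.5 CPM, above the acinar gate in each tumour and within the range of the ductal gate. By mean level the ductal gate and cells of no gate came first and the acinar gate last. The Msln gate overlapped the ductal gate, at 89.1 against 87.8 CPM in tumour 3, as well as the acinar gate, so it has no fixed place between them, and the squamous gate has 1 value.

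At an equal depth of 1000 UMIs per cell, an Msi2 UMI was seen in 7.61%, 13.1% and 7.27% of ductal-gate cells of tumours 1, 2 and 3. The shares in the acinar gate were 3.97%, 0% and 4.65%, where 0 of 39 cells allows a share of up to 7.69%. Without thinning they were 15.5%, 20.2% and 17.7% in the ductal gate and 10.1%, 0% and 15.4% in the acinar gate, with median depths of 1672, 1245 and 1893 UMIs against 1780, 1226 and 2328. Most cells of either gate therefore had no Msi2 UMI at this depth, which does not show that they lacked the RNA.

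Msi1 was nearly absent from these libraries. It gave 2 UMIs in all 4481 cells, both in tumour 2, in 1 cell of no gate and 1 barcode rich in ribosomal RNA, and 0 UMIs in free RNA of the 3 libraries. It was 0 in all acinar-, ductal- and Msln-gate sums, and did not pass the count filter of any comparison.

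**Figure D1:**
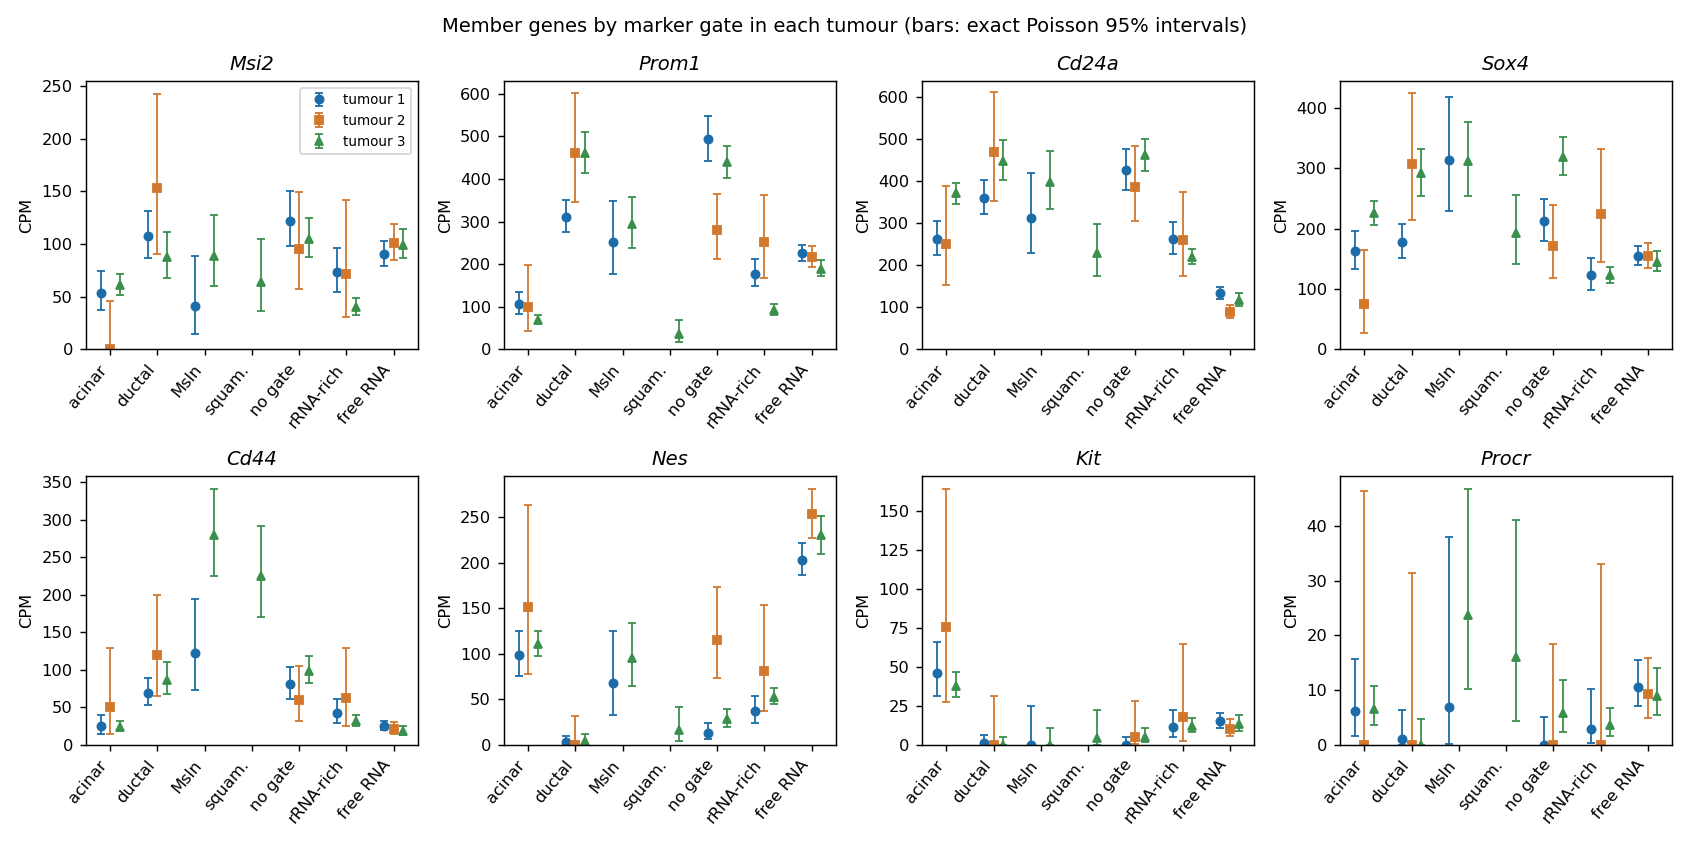
Levels of 8 members (y axes, CPM of summed UMIs, each from 0) in the acinar, ductal, Msln and squamous gates, in cells of no gate, in barcodes rich in ribosomal RNA and in free RNA (x axes), with 1 point per tumour for sums of 20 or more cells and bars for exact Poisson 95% intervals, which cover counting error only. Msi2, Prom1 and Cd44 points of the ductal gate lie above those of the acinar gate in each tumour, Kit is highest in the acinar gate and at or near 0 in the ductal and Msln gates, and Nes is near 0 in the ductal gate while free RNA lies between 203 and 253 CPM.

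Across the ductal and acinar gates 6 of the 9 members tested passed the threshold, 4 higher and 2 lower in the ductal gate. Of all 9218 genes tested 30.0% passed it, 15.7% higher and 14.3% lower. The fit paired the gates within tumours 1 and 3, since the acinar gate of tumour 2 had fewer than 50 cells. The difference of Msi2 was 0.84 ± 0.22 on the log2 scale (SE), with an adjusted p of 0.00151 (edgeR's quasi-likelihood test, Benjamini-Hochberg adjustment). With DESeq2 the adjusted p of Msi2 was 0.0739, and without tumour 1 it was 0.164 in edgeR, with log2 differences of 0.89 and 0.75. Kit, Nes and Procr reached the count filter only through the gates where they are high, so the count of 6 and the differences of these 3 members are descriptions.

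Prom1, the pentaspan membrane protein CD133 of apical membranes, had the largest rise from the acinar to the ductal gate among the members. Its ductal levels were 311, 461 and 461 CPM, and its acinar levels were 106, 101 and 70.1 CPM in tumours 1, 2 and 3. All ductal tumours were above all acinar tumours, and free RNA lay between at 226, 216 and 190.0 CPM. The log2 difference was 2.35 ± 0.20 (edgeR adjusted p 4.24e-20). Cells of no gate were at 493, 281 and 440 CPM and the Msln gate at 252 and 294 CPM, so both overlapped or approached the ductal range, while the squamous gate of tumour 3 had 36.2 CPM. In thinned cells a Prom1 UMI was present in 24.9%, 29.8% and 29.1% of ductal-gate cells and in 7.22%, 5.13% and 4.11% of acinar-gate cells.

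Cd24a, a small glycosylphosphatidylinositol-anchored surface protein, and the transcription factor gene Sox4 stood higher in the ductal gate in each of the 3 tumours, with smaller fitted differences than Prom1. Cd24a was at 361, 469 and 448 CPM in the ductal gate and at 262, 252 and 371 CPM in the acinar gate, and the highest acinar tumour overlapped the lowest ductal tumour. Its log2 difference of 0.44 ± 0.17 had an edgeR adjusted p of 0.0423, and the call was lost in 8 of 14 alternatives, with adjusted p up to 0.501. Both gates were above free RNA, which carried 134, 88.5 and 118 CPM of Cd24a. Sox4 was at 178, 307 and 292 CPM in the ductal gate and at 163, 75.5 and 226 CPM in the acinar gate, with a log2 difference of 0.39 ± 0.18 that missed the threshold (edgeR adjusted p 0.0996). When the acinar gate of tumour 2 was let in by accepting sums of 20 or more cells, the Sox4 difference was 0.51 with an adjusted p of 0.0309.

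Nes and Kit ran the other way. Nes had 98.2, 151 and 111 CPM in the acinar gate of tumours 1, 2 and 3. In the ductal gate it had 3.39, 0 and 3.87 CPM, from 3, 0 and 3 UMIs. The tumours of the 2 gates were far apart, and the fitted log2 difference was -5.13 ± 0.40. Free RNA held more Nes than any gate, 203, 253 and 230.3 CPM, so the ductal gate lay far below the free RNA around it and the acinar gate lay below it too. In thinned cells 8.66%, 15.4% and 8.94% of acinar-gate cells had a Nes UMI, against 0.508%, 0% and 0.455% of ductal-gate cells.

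Kit had 46.0, 75.5 and 37.9 CPM in the acinar gate, from 30, 6 and 87 UMIs. The ductal gate gave 1 UMI in its 698 cells and the Msln gate 0 UMIs in its 150 cells. The ratio of acinar to ductal levels over all UMIs was 72.1, with a 95% counting interval from 12.7 to 2872, since the ductal level rests on 1 UMI. Free RNA carried 14.9, 9.99 and 13.3 CPM of Kit, below the acinar gate in each tumour. Cells of no gate had 7 Kit UMIs in 566 cells.

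Markers of other cell types in which Kit and Nes are known were measured in the acinar gate of the 3 tumours. The 7 mast cell genes summed to 1 UMI, and 6 or 7 of the 7 were at 0 in each tumour, with a summed level of 0 to 0.435 CPM. The 8 fibroblast and stellate genes summed to between 0 and 4.60 CPM, with Col1a2, Col3a1, Dcn and Lum at 0 in each tumour. The 6 endothelial genes summed to 36.8, 0 and 23.1 CPM. Egfl7 gave 19 of the 24 UMIs in tumour 1 and 50 of the 53 in tumour 3. Pecam1 gave the rest, with Cdh5, Kdr, Plvap and Emcn at 0. In the ductal gate the same 3 lists lay between 0 and 1.13 CPM, 0 and 8.53 CPM, and 0 and 6.46 CPM. The mast cell and fibroblast lists were thus at or near 0 in the gate where Kit and Nes were high, while the endothelial list was higher there than in the ductal gate in tumours 1 and 3, the same direction as Kit and Nes; its part in the result was not tested. Myeloid genes reached 12.6 CPM in the acinar gate and 14.2 CPM in the ductal gate, and their part in the result was not tested.

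Cd44, the hyaluronan receptor, rose from the acinar to the ductal gate and again from the ductal to the Msln gate. It stood at 24.6, 50.3 and 24.0 CPM in the acinar gate and at 69.0, 119 and 86.5 CPM in the ductal gate of tumours 1, 2 and 3. The Msln gate had 123 and 279 CPM in tumours 1 and 3, and the squamous gate of tumour 3 had 225 CPM. All ductal tumours were above all acinar tumours, and both Msln sums were above every ductal tumour. Free RNA carried 24.8, 21.4 and 18.0 CPM, close to the acinar gate. The log2 difference was 1.89 ± 0.27 between the ductal and acinar gates (edgeR adjusted p 1.25e-09).

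Procr and Bmi1 were rare. Procr gave 4, 0 and 15 UMIs in the acinar gate, 1, 0 and 0 in the ductal gate and 1 and 8 in the Msln gate of tumours 1 and 3. Its difference between the ductal and acinar gates missed the threshold (edgeR adjusted p 0.0886), and the ratio of acinar to ductal levels was 11.1 with a counting interval from 1.77 to 463. Bmi1 had 15.8, 25.6 and 12.9 CPM in the ductal gate and 18.4, 25.2 and 30.5 CPM in the acinar gate. These ranges overlapped each other and that of free RNA, 13.4 to 20.8 CPM, and its log2 difference of -0.79 ± 0.38 missed the threshold (edgeR adjusted p 0.107).

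The acinar gate held more cycling cells than the ductal gate. A cell was called cycling if 1 or more of its 1000 thinned UMIs came from 10 mitosis genes such as Mki67 and Top2a. The shares were 69.3%, 94.9% and 59.9% in the acinar gate and 38.1%, 39.3% and 22.3% in the ductal gate. Among non-cycling cells alone, Prom1 was at 159 and 93.0 CPM in the acinar gate of tumours 1 and 3 and at 340, 385 and 513 CPM in the ductal gate of tumours 1, 2 and 3. In the same cells Msi2 was at 63.5 and 71.4 CPM against 93.5, 178 and 89.8 CPM, Nes at 84.7 and 94.1 CPM against 1.91, 0 and 5.61 CPM, and Kit at 42.4 and 36.3 CPM against 1.91, 0 and 0 CPM. The gates did not overlap for these 4 members when only non-cycling cells were counted. They did overlap for Sox4 and Cd24a. Non-cycling Sox4 was at 159 and 305 CPM in the acinar gate and at 197, 415 and 329 CPM in the ductal gate. Non-cycling Cd24a was at 296 and 379 CPM against 353, 385 and 460 CPM.

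Between the Msln and ductal gates 3 of the 9 members tested passed the threshold, all higher in the Msln gate, where 5.21% of 9218 genes passed, 3.59% higher and 1.62% lower. Nes was at 68.1 and 95.1 CPM in the Msln gate of tumours 1 and 3, against at most 3.87 CPM in the ductal gate, a fitted log2 difference of 4.84 ± 0.52. The 5 acinar genes Cpa1, Pnliprp1, Cel, Cela1 and Zg16 summed to 61.3 and 270.3 CPM in the Msln gate of tumours 1 and 3 and to 122 and 211 CPM in the ductal gate of the same tumours, so they were higher in the Msln gate in tumour 3 only; their part in the Nes difference was not tested. The difference of Cd44 was 1.35 ± 0.25 (edgeR adjusted p 1.82e-05), and without tumour 3 it was 0.70 with an adjusted p of 0.807. Myeloid genes, a list of 6, summed to 40.9 and 44.6 CPM in the Msln gate against at most 14.2 CPM in the ductal gate; 20 of these 21 Msln-gate UMIs were of Cd68, Lyz2, C1qa, S100a8 and S100a9 were at 0, and the part of this list in the Cd44 difference was not tested. Procr had a fitted log2 difference of 4.33 ± 1.35, resting on 9 UMIs against 1, a ratio of 32.1 with a counting interval from 4.45 to 1407. The Procr call was lost with DESeq2 (adjusted p 0.273) and with the ribosomal RNA rich barcodes put back in their gates (adjusted p 0.0855). Nes and Procr reached the count filter only through gates where they are high, so their differences and the count of 3 are descriptions.

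The other members missed the threshold in this comparison. Prom1 differed by -0.57 ± 0.21 (edgeR adjusted p 0.105), Msi2 by -0.49 ± 0.30 (0.460), Sox4 by 0.29 ± 0.21 (0.555), Cd24a by -0.23 ± 0.20 (0.632) and Bmi1 by 0.44 ± 0.60 (0.789). Kit had 0 UMIs in the Msln gate and 1 in the ductal gate, so no fold is given. These values do not show that the gates were alike: in simulated sums of the same size 21% of genes changed by 2-fold and 59% of those changed by 4-fold were recovered.

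**Figure D2:**
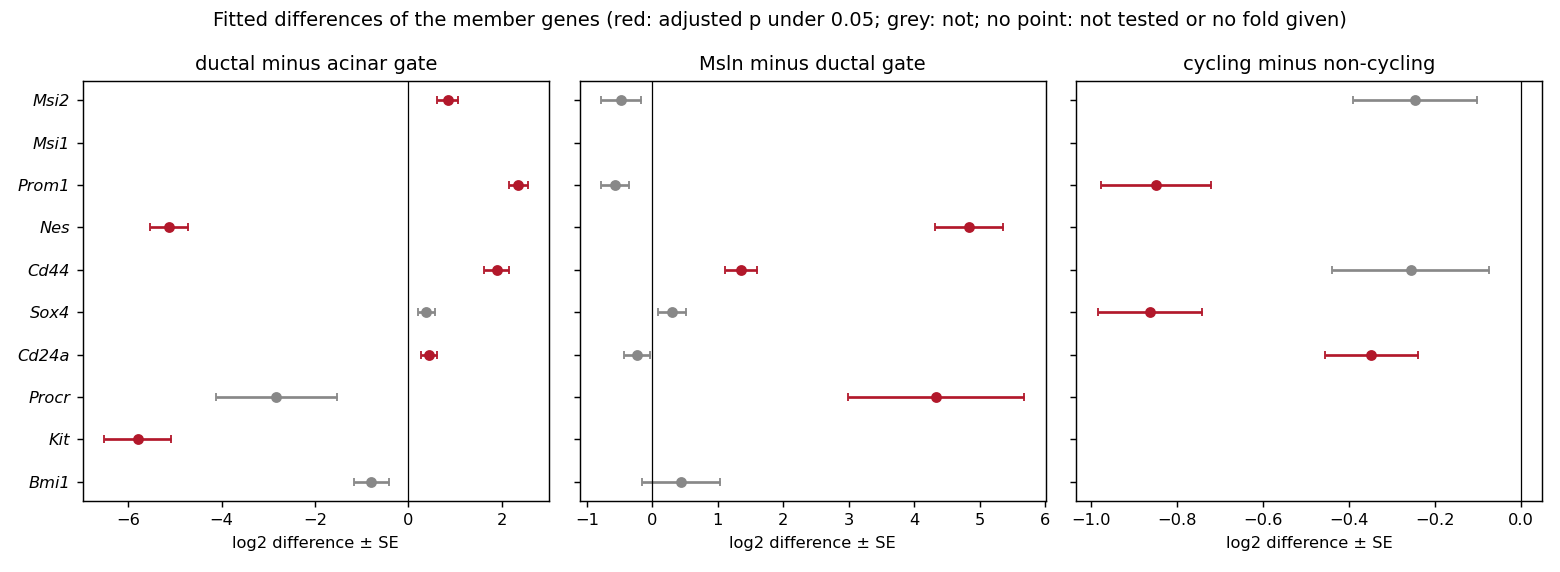
Fitted log2 differences of the members (x axes, points with SE bars, a separate scale in each panel) for the ductal minus acinar gate, the Msln minus ductal gate, and cycling minus non-cycling cells, with red for an adjusted p under 0.05 in edgeR. Prom1 and Cd44 lie to the right and Nes and Kit far to the left in the first panel, Nes and Cd44 lie to the right in the second, and Prom1 and Sox4 lie furthest left in the third.

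Genes of related pathways were described from lists chosen with earlier results in view, by counts only. Of 17 tested genes of the Notch and Numb pathway none was higher and 4 were lower in the ductal gate than in the acinar gate. Among them were the receptor Notch1 (log2 difference -2.46), the glycosyltransferase Mfng (-4.73) and the ligand Jag2 (-1.97). The list median was -0.03 against -0.02 over all genes. Numb itself, the best known Musashi target, was among the 13 that missed the threshold, at 1.25 ± 0.54 (edgeR adjusted p 0.0662). Of 20 tested genes of the Polycomb list, which holds Polycomb genes and 2 of their targets, 2 were higher and 3 lower. The 2 higher were the targets Cdkn2a and Cdkn2b, cell cycle inhibitors silenced by Polycomb complexes, at 4.16 and 2.43. The 3 lower were the Polycomb genes Pcgf2, Pcgf5 and Suz12, at -1.41, -0.97 and -0.50. The median of the Polycomb list was -0.13.

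Of 17 tested other stem and progenitor genes 7 were higher in the ductal gate, among them the tetraspanin gene Cd9 (1.05) and Klf4 (1.08), and 3 were lower, the aldehyde dehydrogenase genes Aldh1b1 (-4.73) and Aldh1a1 (-1.14) and the transporter gene Abcg2 (-1.31). The list median was 0.47. Of 10 tested ligands, targets and partners of Cd44, Kit, Cd24a and Procr 3 were higher (Ezr, Mmp14 and F2rl1, by 0.85, 2.14 and 1.18) and 4 lower, among them Rdx (-3.64), Msn (-2.37) and Hmmr (-0.90). Ezrin, radixin and moesin, the products of Ezr, Rdx and Msn, link CD44 to the actin cytoskeleton, and the 3 genes did not move together: Ezr was higher in the ductal gate and the others lower. Of 9 RNA-binding relatives with a pair of RNA recognition motifs only Tardbp passed, at -0.52. These counts moved with the tumours used: the genes called fell from 4 to 1 (Notch), from 10 to 5 (other stem genes) and from 5 to 2 (Polycomb) without tumour 1, and were 2, 5 and 3 without tumour 3, where those of the partners fell from 7 to 2. Tardbp did not pass with any 1 tumour left out.

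In the Msln gate against the ductal gate the list of partners had 3 higher genes, Msn (4.48), Rdx (2.58) and the CD44 ligand Spp1 (1.13), and the list of other stem genes had Aldh1a3 (2.78), Cd9 (0.93) and the integrin Itgb1 (0.67) higher. No gene of these 2 lists was lower, and none of the Notch, Polycomb or RNA-binding lists passed in either direction. Without tumour 3 no gene of the 2 lists passed, and without tumour 1 the other stem genes had 1.

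Within gates, Prom1 and Sox4 were lower in cycling cells. Of 5 members with enough counts to be tested 3 passed the threshold, all lower in cycling cells, where 10.3% of 4560 genes passed, 3.68% higher and 6.60% lower. The fit compared cycling with non-cycling cells in 8 pairs of the same tumour and gate (acinar, ductal or no gate). Sox4 had 159 to 415 CPM in non-cycling sums and 92.7 to 211 CPM in cycling sums, and was lower in 7 of 8 pairs, the acinar gate of tumour 1 being the exception at 159 and 164 CPM. Its log2 difference was -0.86 ± 0.12 (edgeR adjusted p 4.20e-06). Prom1 was lower in cycling cells in 7 of 8 pairs as well, with a log2 difference of -0.85 ± 0.13 (edgeR adjusted p 1.12e-05). Its exception was the ductal gate of tumour 2, at 385 CPM in 51 non-cycling cells and 563 CPM in 33 cycling cells.

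Cd24a was lower in 6 of 8 pairs, by -0.35 ± 0.11 on the log2 scale (edgeR adjusted p 0.0316). That call was lost in 6 alternatives, among them DESeq2 (adjusted p 0.0622) and the fits without tumour 1 (0.220) or tumour 3 (0.333). Msi2 differed by -0.25 ± 0.14 (edgeR adjusted p 0.326) and Cd44 by -0.26 ± 0.18 (0.437), and neither passed, although Msi2 was lower in 7 of 8 pairs. No member passed a test of whether the cycling difference itself differed between the acinar and ductal gates (edgeR adjusted p 0.999 for each of the 5). A cell without a mitosis UMI may still have been cycling, since only 1000 UMIs per cell were read for the call. Nes, Msi1, Procr, Kit and Bmi1 had too few counts to be tested here. Of these, Nes was lower in cycling cells in 1 of 8 pairs, the ductal gate of tumour 3, with 3 UMIs in non-cycling and 0 in cycling cells. Nes had 0 UMIs in both sums of the ductal gate of tumour 2. In the acinar gate it had 84.7 CPM in non-cycling and 104 CPM in cycling cells of tumour 1, and 94.1 and 121 CPM in tumour 3.

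**Figure D3:**
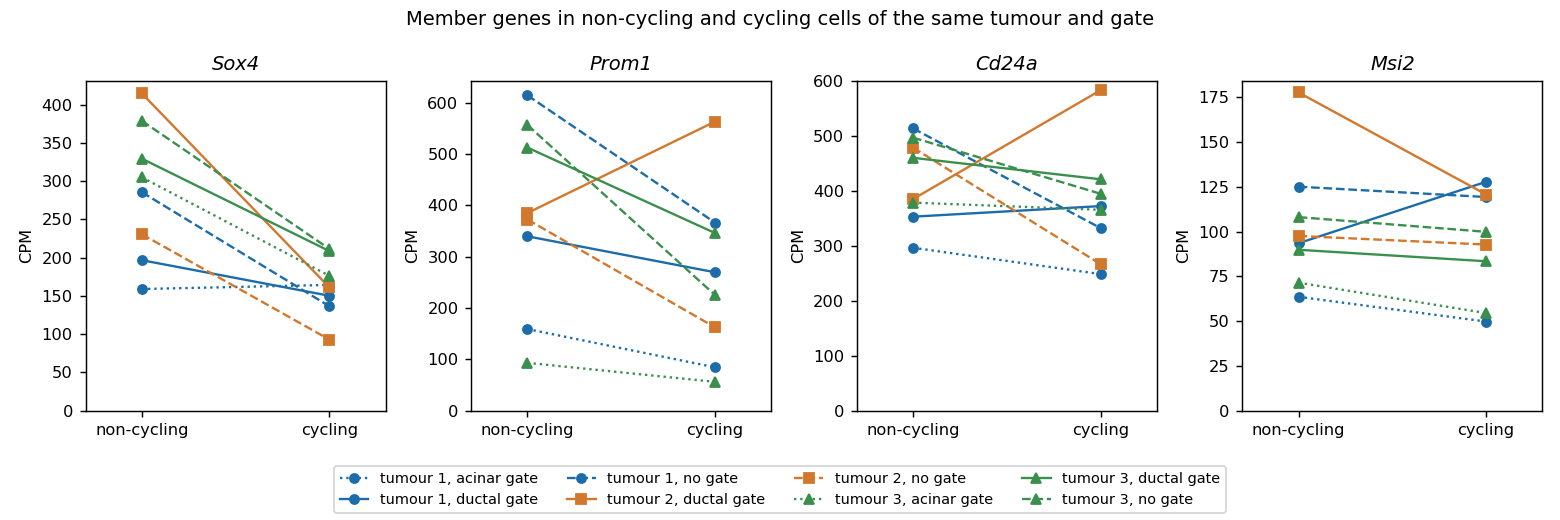
Levels of Sox4, Prom1, Cd24a and Msi2 (y axes, CPM from 0) in non-cycling and cycling cells, with a line for each of 8 pairs of sums from the same tumour (colour and marker) and gate (line style). Sox4 and Prom1 fall in 7 of 8 pairs, Sox4 rises slightly in the acinar gate of tumour 1, and Prom1 rises in the ductal gate of tumour 2.

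Of the other genes of the lists that could be tested in this comparison, Stmn1, which acts on microtubules in mitosis, was higher in cycling cells by 0.60 and the ductal progenitor factor Sox9 was lower by -0.78. Hmmr, a hyaluronan receptor of the mitotic spindle, was higher by 1.54 and Rdx by 0.45, while Spp1 was lower by -0.95. Among the RNA-binding relatives Hnrnpd, Hnrnpa2b1 and Hnrnpa3 were higher by 0.49, 0.36 and 0.40, and 6 of the 9 missed the threshold. None of 5 genes of the Notch list and 7 of the Polycomb list passed. Without tumour 3 no RNA-binding relative and 1 partner passed, and without tumour 1 no other stem gene and 1 RNA-binding relative did, against 5 of these relatives without tumour 2.

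Few single cells showed 3 or more members. At 1000 UMIs per cell, between 25.0% and 56.0% of the cells of a gate in a tumour had no member detected, and between 0.722% and 7.84% had 3 or more. Over the 11 sums outside the ribosomal RNA rich group 97 of 2296 cells had 3 or more, where 73.9 were expected if members fell independently, and the count was above its expectation in 7 of the 11. No gate of 50 or more cells held a cell with more than 4 of the 10. Pairs were then set against the number of cells expected if the members of a pair fell independently within each tumour and gate, over 2414 cells outside the ribosomal RNA rich group and all 45 pairs. The 2414 include 67 cells that met the limits of several gates, other than ductal with Msln alone, taken as a group of their own.

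Prom1 and Cd24a were found together in 146 cells where 113.6 were expected, a ratio of 1.29. The pair exceeded its expectation in each tumour, with 63 cells against 51.2 in tumour 1, 21 against 16.3 in tumour 2 and 62 against 46.0 in tumour 3. Sox4 and Cd24a were found together in 136 cells against 102.4 expected (ratio 1.33), also above expectation in each tumour. Msi2 and Sox4 were found together in 41 cells against 28.2, with 16 against 11.02, 6 against 4.43 and 19 against 12.8 in tumours 1, 2 and 3 (ratio 1.45). With the 5% of cells with the highest doublet scores removed, the Msi2 and Sox4 pair was above expectation in 2 tumours and had a ratio of 1.42.

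Msi2 fell with Prom1 in 34 cells against 32.5 expected and with Cd24a in 41 against 40.4, both near a ratio of 1. The 41 cells with Msi2 and Sox4 were 26.1% of the 157 cells with Msi2 and 10.1% of the 405 with Sox4. Prom1 and Nes met in 5 cells against 10.4 expected and were below expectation in each tumour. That ratio of 0.479 was 0.780 with every barcode kept and turned to 1.37 (72 cells against 52.6) in cells that were not thinned. Nes and Kit met in 6 cells against 3.03. The last 2 pairs rest on few cells. No test was made on these counts.

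**Figure D4:**
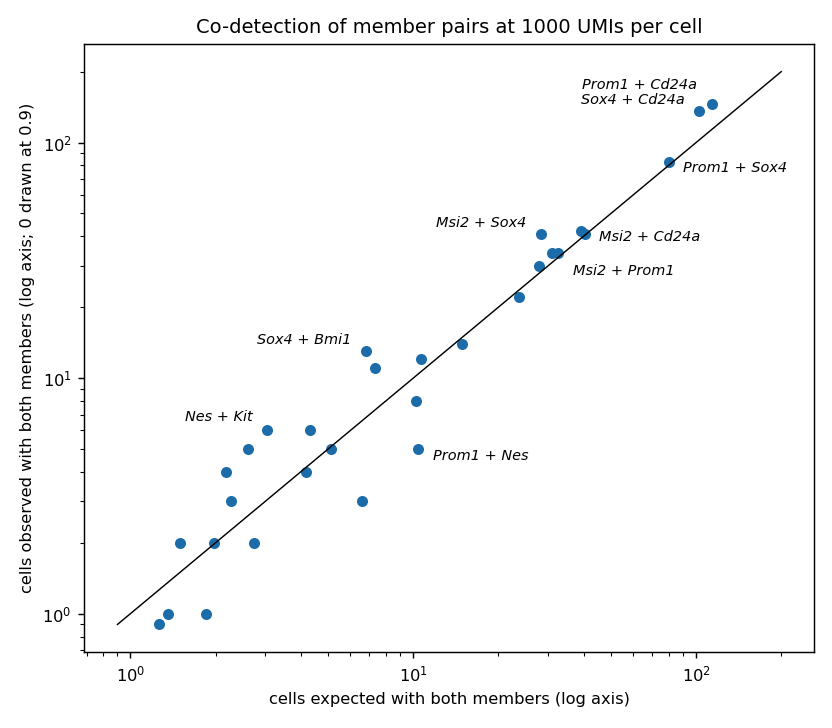
Cells in which both members of a pair had a UMI (y axis, log scale) against the number expected from independence within each tumour and gate (x axis, log scale), at 1000 UMIs per cell, for pairs with at least 1 expected cell; the line marks equality. Prom1 with Cd24a, Sox4 with Cd24a and Msi2 with Sox4 lie above the line at 146, 136 and 41 cells, Msi2 with Prom1 lies near it at 34, and Prom1 with Nes lies below it at 5.

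Cells with an Msi2 UMI were compared with the other cells of the same tumour and gate in 7 pairs, each with 11 to 30 Msi2-detected cells (137 in all). Malat1 and Neat1, long non-coding RNAs that stay in the nucleus, were the genes that passed the threshold, 2 of 2017 (0.0992%), and both were higher with Msi2. None of the 4 other members tested passed, out of those 2017 genes, of which 139 had an unadjusted p under 0.05. Msi2 itself set the groups and was left out. Detection was called after thinning, so the other cells also held Msi2 RNA. Its mean level was 446 CPM in Msi2-detected sums and 66.5 CPM in the others.

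Malat1 averaged 8711 CPM in Msi2-detected sums and 4678 CPM in the others and was higher in 7 of 7 pairs. The smallest contrast was in the ductal gate of tumour 3, with 9772 against 8169 CPM, and the largest in its acinar gate, with 13407 against 3619 CPM. Its log2 difference was 0.99 ± 0.16 (edgeR adjusted p 0.00220). Neat1 averaged 1717 against 853 CPM and was higher in 6 of 7 pairs, the ductal gate of tumour 3 being the exception, with a log2 difference of 1.12 ± 0.21 (edgeR adjusted p 0.00919). The call for Malat1 was lost without tumour 1 (adjusted p 0.0830), without tumour 3 (0.0758) and with every barcode kept (0.100), at log2 differences of 0.78 to 0.92. The call for Neat1 was lost with DESeq2 (0.0589) and without tumour 1 (0.282), where its log2 difference was 0.68. Without pairing the sums of a tumour and gate both calls were lost (adjusted p 0.748 and 0.764), at log2 differences of 1.00 and 1.04. In a simulation with 200 of 2018 genes changed, 7 unchanged genes (0.418%) were called as well. With so many genes changed, the adjusted threshold is looser than in the real comparison. That number therefore does not give the false calls among the 2 made here.

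The median depth of Msi2-detected cells was above that of the other cells in 3 of 7 pairs, and their median mitochondrial share in 4 of 7. Their median share of ribosomal RNA locus genes was higher in 6 of 7 pairs. The part of that share in the calls for Malat1 and Neat1 was not tested. Among the members Sox4 differed by 0.31 ± 0.16 (edgeR adjusted p 0.714) and was higher in 5 of 7 pairs, Prom1 by 0.32 ± 0.19 (0.776), Cd24a by 0.28 ± 0.17 (0.776) and Cd44 by 0.39 ± 0.33 (0.911). In simulated sums of this size 69% of genes changed by 2-fold were recovered, so smaller differences could have been missed.

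**Figure D5:**
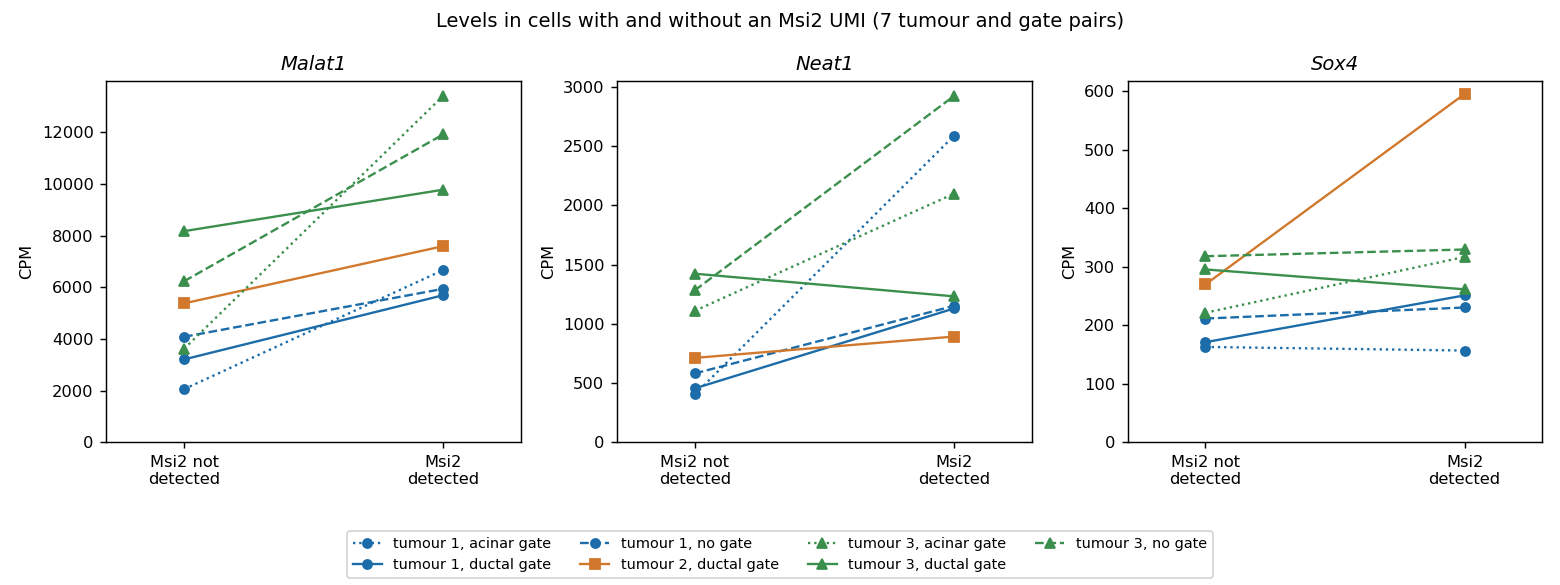
Levels of Malat1, Neat1 and Sox4 (y axes, CPM from 0) in cells without and with an Msi2 UMI at 1000 UMIs per cell, with a line for each of 7 pairs of sums from the same tumour (colour and marker) and gate (line style). Malat1 rises in 7 of 7 pairs, Neat1 in 6 of 7 and Sox4 in 5 of 7.

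Cells with and without a UMI of 4 other members were compared in the same way as for Msi2, a set of fits added after the data were seen. Prom1-detected cells differed most: 92 genes were higher and 93 lower of 3202 tested (5.78% in all, 2.87% higher and 2.90% lower, edgeR) over 10 pairs of tumour and gate. The smallest p-values among the higher genes were those of the secretory gene Wfdc18 (370 against 123 CPM, higher in 10 of 10 pairs), Dmbt1, which encodes a mucosal scavenger protein (4582 against 1927 CPM), Reg1 (13464 against 7213 CPM), Sptssb and the lactotransferrin gene Ltf. Among the lower genes they were those of the histone gene Hist1h2ap, the metallothionein gene Mt2 (404 against 816 CPM, lower in 10 of 10 pairs), AC160336.1, Sssca1 and the mitosis gene Birc5. Cd24a was higher in Prom1-detected cells by 0.60 ± 0.13 on the log2 scale (edgeR adjusted p 0.00407), in 9 of 10 pairs. Prom1-detected cells also had the higher median mitochondrial share in 9 of 10 pairs, the higher median depth and ribosomal RNA share in 8 of 10 each, and the lower share of cycling cells in 8 of 10, and the part of these in the result was not tested.

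Sox4-detected cells had 5 higher genes of 2344 (0.213%), Clu, Mfge8, Dmbt1, Junb and Nfkbiz, each higher in 9 of 10 pairs. Cd24a-detected cells had 5 higher of 3030 (0.165%), Ctse, Reg1, Sox4, Wfdc18 and Dmbt1, and Cd44-detected cells had 1 of 1586 (0.0631%), the integrin gene Itga2 (275 against 110 CPM, higher in 7 of 7 pairs). The reverse comparisons did not pass. Cd24a differed by 0.31 ± 0.14 in Sox4-detected cells (edgeR adjusted p 0.524), and Prom1 by 0.51 ± 0.13 in Cd24a-detected cells (edgeR adjusted p 0.106). Cycling cells were a smaller share of Sox4-detected cells in 9 of 10 pairs and of Cd24a-detected cells in 8 of 11, the median mitochondrial share was higher in 7 of 10, 8 of 11 and, for Cd44, 5 of 7 pairs, and the median ribosomal RNA share in 8 of 10, 8 of 11 and 7 of 7; their part in these calls was not tested. No gene was lower in these 3 edgeR fits, where 213, 301 and 109 genes had an unadjusted p under 0.05. Malat1 differed by 0.04, 0.27, -0.02 and 0.06 on the log2 scale in Prom1-, Sox4-, Cd24a- and Cd44-detected cells and passed in none of them; its difference from the Msi2 comparison was not tested.

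Over the 11 sums of 50 or more cells, the genes whose level followed that of Msi2 most closely were Uba1, the ubiquitin-activating enzyme (Pearson r of log2 CPM 0.896), the transcription elongation factor gene Supt6 (0.876), Golim4 (0.862), Tmem183a (0.858) and the oxidative stress factor Nfe2l2 (0.841), among 2876 genes at a mean of 50 CPM or more. Uba1 had 127, 154 and 119 CPM in the ductal gate and 67.5 and 101 CPM in the acinar gate of tumours 1 and 3. Of the members Cd24a followed Msi2 at 0.721 and Prom1 at 0.633, while Sox4 stood at 0.125 and Nes at -0.651. The sums of 1 tumour share a library, and these correlations are descriptions.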

How the data were processed

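Tumours were digested, sorted for EpCAM and run on 10x Genomics chips with sequencing on a HiSeq4000, per the labels' protocols, in which a Version 1 and a Version 3 reagent kit both appear. The deposited values are UMI counts per gene and barcode, not normalized, made with Cell Ranger 3.0.2 per the file headers, and the submitters' processing notes name mm10 and Seurat 3.1. Each table lists 6794880 barcodes and is therefore without cell calling. The members and gene lists were chosen with earlier results of these data known.

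Cells had 1000 or more UMIs, 500 or more genes, at most 20% mitochondrial UMIs and 60% or more of the barcode's UMIs in their library. Scrublet in scanpy 1.11.5 marked 4, 3 and 0 doublets, which were removed; so few calls say little about how many were present. A gate needed 2 or more UMIs of its genes and, per 1000 UMIs, at least 3 (acinar), 2 (ductal) or 1 (squamous, Msln). Cells of the ductal and Msln gates went to the Msln gate. Other combinations (67 cells) were left out of the gates and the fits but were kept in the co-detection counts as a group of their own. These thresholds, and the 10% limit for ribosomal RNA locus genes (Gm42418, AY036118, Gm26917) with Lars2, were set after the gate genes were seen and without looking at the members.

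Shares, co-detection and cycling calls used cells thinned to 1000 UMIs. CPM, computed here, carry exact Poisson 95% intervals, and 3 counts are the upper limit taken for a count of 0; both cover counting error only, as do the shares' limits. Raw UMIs were summed per tumour and gate (50 or more cells, 11 sums), and per cycling state (20 or more) or Msi2 detection (10 or more) within gates. edgeR 4.0.16 (R 4.3.3) fitted all sums of a comparison with filterByExpr, TMM factors and the tumour, or the tumour and gate, as a block, with 4, 7 and 6 residual degrees of freedom, and glmQLFTest p-values were Benjamini-Hochberg adjusted over all genes tested at 0.05, without gate genes or genes that set the groups. The tumour is the block because its gates share 1 animal. Each fit was tested on simulated data: of genes changed by 4-fold 81%, 59%, 83% and 87% were recovered in the ductal, Msln, cycling and Msi2 comparisons. Named genes were all members and, per list and direction, up to 3 genes of smallest p. P-values of the gate comparisons rest on the spread left over the 11 sums of all gates, which edgeR moderates with the spread of other genes. They do not measure the spread of 1 gate difference between tumours, for which only 2 tumours held both gates. Very small p-values are therefore not a measure of replication over animals. Those of the cycling and detection comparisons rest in the same way on the spread over pairs of tumour and gate. Several of these pairs share a tumour, so they are not independent animals. Alternatives included DESeq2 1.42.0, other scaling, no count filter, no block, other cell filters and leaving out each tumour.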

Additional observations from a re-analysis of the deposited data

How the results depend on the processing

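Of 348 values of single genes under an alternative, 315 kept their direction and side of the threshold, 27 no longer passed, 2 passed only there and 4 changed direction; Prom1 and Cd44 (ductal against acinar gate) and Prom1 and Sox4 (cycling cells) passed in every alternative run. Of 190 counts of called genes in the gene lists under an alternative, 149 stayed within 1.5 times their count and 41 did not. Between the ductal and acinar gates 2761 genes passed, against 1269 with DESeq2, 1606 with no replicate block, that is without pairing the gates of a tumour, and 772 to 2773 when 1 tumour was left out. Between the Msln and ductal gates 480 passed, against 211 with DESeq2, 206 with no block, 760 with every barcode kept, and 69 to 550 when 1 tumour was left out, 69 without tumour 3. Between cycling and non-cycling cells 469 passed, against 148 with no block, 771 with every barcode kept, 244 with 2000 or more UMIs, and 76 to 503 when 1 tumour was left out. For Msi2-detected cells 2 passed, against 1 with DESeq2, 47 with no count filter, 1 with every barcode kept, 0 with no block (Malat1 and Neat1 at adjusted p 0.748 and 0.764), and 0 to 2 when 1 tumour was left out. The ratio of observed to expected cells for Msi2 with Sox4 was 1.35 with every barcode kept and 1.63 without thinning, and for Msi2 with Prom1 1.62 and with Cd24a 1.38 without thinning. Directions changed for Sox4 (-0.11 to 0.65 when 1 tumour was left out, lowest without tumour 1) and Bmi1 (-1.25 to 0.96, lowest without tumour 3) between the Msln and ductal gates, and for Prom1 (-0.013) and Cd24a (-0.039) in Msi2-detected cells with no count filter; none had passed, and the cause was not tested. With no block the Procr call in the Msln gate was lost (adjusted p 0.0716) and Cd24a was lost in both comparisons (0.313 and 0.233). The Msln comparison with 2000 or more UMIs and with doubled gate limits was not run, because no tumour had 50 Msln-gate cells left. Median depths of 1332 to 1621 UMIs leave most members at 0 in most cells, and the 39 acinar-gate and 9 Msln-gate cells of tumour 2 limit what that tumour can show.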
